A study of Drosophila melanogaster with 12 samples.

Results

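The genes described here run mitosis and chromosome segregation: mitotic cyclins and their activators, the chromosomal passenger complex, the spindle checkpoint, the centromere and kinetochore, condensin, cohesin, the machinery of anaphase, spindle motors, cytokinesis, and the PNG kinase complex of the early embryo. They are a named set of 44 genes, and a gene was taken as measured where a probe set carried its symbol alone on the platform annotation. That left 34 genes of 11982 genes measured in all, each read on the probe set with the highest mean, and 10 (CycA, Cdk1, stg, polo, aurA, BubR1, vtd, asp, pav and sti) were not analysed here. RNA came from Kc167 cells, a Drosophila line of embryonic origin with hemocyte (blood cell) traits, on 12 Affymetrix arrays. The 3 PTIP arrays are from cells that received double-stranded RNA (dsRNA) against PTIP, the 3 Pc/ph arrays from cells with dsRNA against polycomb and polyhomeotic, and the 3 Pc/ph+PTIP arrays from cells with dsRNA against all of these. The 3 control arrays are from cells alone, and the labels do not state whether those cells received any dsRNA. Each well held 1000000 cells, dsRNA was given at 15 µg per well, serum was added to 5% after 1 hour, and RNA was taken after 6 days. All values are log2 RMA signals per probe set, on which a difference of 1 is a doubling, and levels are compared between groups for the same gene only.

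Mitosis starts when cyclin-bound Cdk1 is activated by Cdc25 phosphatases. Condensin then compacts the chromosomes, kinetochores assembled on the centromeric histone bind spindle microtubules, and the spindle checkpoint holds the cell in metaphase until all of them are attached. The anaphase-promoting complex (APC/C) next destroys securin and cyclin B, which frees separase to cut cohesin, and the central spindle and contractile ring divide the cell. Many of these transcripts rise and fall together with the cell cycle. The PTIP protein carries BRCT domains and works with enzymes that methylate histone H3, while Pc and ph belong to a Polycomb complex that keeps developmental genes silent.

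The replicate 1 arrays stood apart in all 4 groups, with upper quartiles of 8.65 to 8.95 against 9.62 to 9.74 on the other 8 arrays. All 34 mitosis genes were lower on average on the replicate 1 arrays, by a median of 0.79 on the log2 scale, against 86.4% of all 18769 probe sets and a median of 0.39. Groups were therefore compared in limma with the replicate number as a block, which sets each array against the others of its number, and a gene was called at a Benjamini-Hochberg adjusted p under 0.05 over all probe sets. The median standard error (SE) of a mitosis gene was 0.10 with the block and 0.35 without it, so the block decides most calls below, and counts without it are given as well. The labels do not tie replicates to separate cultures, and p-values here measure only how far these arrays differ, which may be technical. Pc was measured at 21.8, 17.8 and 20.3% of the same-numbered control on the Pc/ph arrays and 45.5, 65.9 and 70.9% on the Pc/ph+PTIP arrays. Ptip was measured at 60.6, 87.8 and 73.5% of control on the PTIP arrays and 49.8, 72.6 and 111% on the Pc/ph+PTIP arrays, and neither Ptip difference from control was called by limma (adjusted p = 0.296 and 0.339). The library labelled Pc/ph+PTIP replicate 3 thus lay above its control for Ptip, and directions drawn from the PTIP dsRNA rest on the labels. Pc was called lower in Pc/ph cells (adjusted p = 0.000251) but not in Pc/ph+PTIP cells (adjusted p = 0.0601), and ph was not analysed here. All 14 hemocyte markers exceeded the highest Y-linked probe set, a background measure in this female line, on all 12 arrays. Of the mitosis genes, plu, with a mean of 5.36, exceeded it on 5 of the 12 arrays and twe, with a mean of 6.01, on 9, so both are near background on some arrays.

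PTIP against control asks what differs after dsRNA against PTIP where Polycomb was not targeted. Ptip itself was not called lower there. Since the labels do not state dsRNA for control cells, an effect of dsRNA as such cannot be told apart. In PTIP cells 9 of the 34 mitosis genes rose and 0 fell, with gnu at 2.11-fold its control level and the other 8 at 1.25 to 1.45 times theirs. The 9 span most stages of division: the cyclin CycB, the APC/C activator fzy, the passenger complex member borr, the checkpoint gene Bub3, the kinetochore partners Ndc80 and Nuf2, the cytokinesis genes tum and scra, and gnu. They make up 26.5% of the measured genes, where limma called 6.52% of all probe sets in this comparison, and 2.72% of all probe sets were called higher. Mitosis genes are brightly expressed, 33 of the 34 lying above the median probe set by mean signal, and among the 9384 probe sets above it 5.24% were called higher. The median difference of the 34 genes was 0.24, against 0.03 over all probe sets. Of the 34, 25 were positive (73.5%, against 59.7% of all probe sets). On same-numbered arrays 18 of 34 were higher in PTIP cells in 3 of 3 pairs, against 22% of all probe sets. The 3 PTIP arrays lay entirely above the 3 control arrays for Bub3 and gnu, 2 of 34, against 3.02% of all probe sets. Without the block limma called 1 of the 34 (gnu), against 0.272% of all probe sets. In these bulk samples a larger share of dividing cells and more RNA per cell cannot be told apart.

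The count of 9 depended on single arrays of both groups. It was 4 without PTIP replicate 2, 2 without PTIP replicate 3, and 4, 5 and 2 without control replicates 1, 2 and 3. Within replicates 1, 2 and 3 taken alone, the median difference of the 34 genes was 0.14, 0.24 and 0.17, each above the 0.05, 0.01 and 0.02 of all probe sets.

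Pc/ph against control asks what changes after dsRNA against the Polycomb genes. In Pc/ph cells 0 of the 34 mitosis genes were called by limma, with or without the block, where 1.53% of all probe sets were called with it. Their median difference was 0.06, against -0.00 over all probe sets. Of the 34, 23 were positive (67.6%, against 49.6% of all probe sets). At an unadjusted p under 0.05 there were 6 (17.6%, against 10.1% of all probe sets), of which 5 were higher. These were Nuf2 at 0.44 ± 0.10 (adjusted p = 0.0884), pim at 0.37 ± 0.09 (adjusted p = 0.0941), mad2 at 0.30 ± 0.09 (adjusted p = 0.171), Ndc80 at 0.27 ± 0.08 (adjusted p = 0.161) and Cap-D2 at 0.22 ± 0.10 (adjusted p = 0.49), and the lower one was feo at -0.19 ± 0.08 (adjusted p = 0.472). On same-numbered arrays 9 of 34 were higher in Pc/ph cells in 3 of 3 pairs, against 16.9% of all probe sets. The within-replicate medians were 0.10, -0.06 and 0.14, so their sign was not the same in all replicates.

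Pc/ph+PTIP against control asks what changes when all of these dsRNAs are given. In Pc/ph+PTIP cells 10 of the 34 mitosis genes rose and 1, the checkpoint kinase gene Bub1, fell. The risers were 8 of the 9 that rose in PTIP cells (all but Ndc80, 0.30 ± 0.08 (adjusted p = 0.0534)), joined by the securin gene pim and the condensin gene Cap-D2, and the PTIP and Pc/ph+PTIP comparisons share their control arrays. The called genes are 32.4% of those measured, where 5.57% of all probe sets were called, 2.71% were called higher, and 5.05% of those above the median signal were called higher. The median difference was 0.28, against 0.01 over all probe sets, and 30 of 34 were positive (88.2%, against 54.2% of all probe sets). In 3 of 3 same-numbered pairs 20 of 34 were higher, against 22.1% of all probe sets. For Bub3, Nuf2 and gnu the 3 Pc/ph+PTIP arrays lay above the 3 control arrays, 3 of 34, against 3.67% of all probe sets. Without the block 1 of the 34 (gnu) was called, against 0.272% of all probe sets. The count of 11 fell to 5, 4 and 3 without Pc/ph+PTIP replicates 1, 2 and 3, to 3, 4 and 3 without control replicates 1, 2 and 3, and to 7 without Pc/ph replicate 3.

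**Figure D1:**
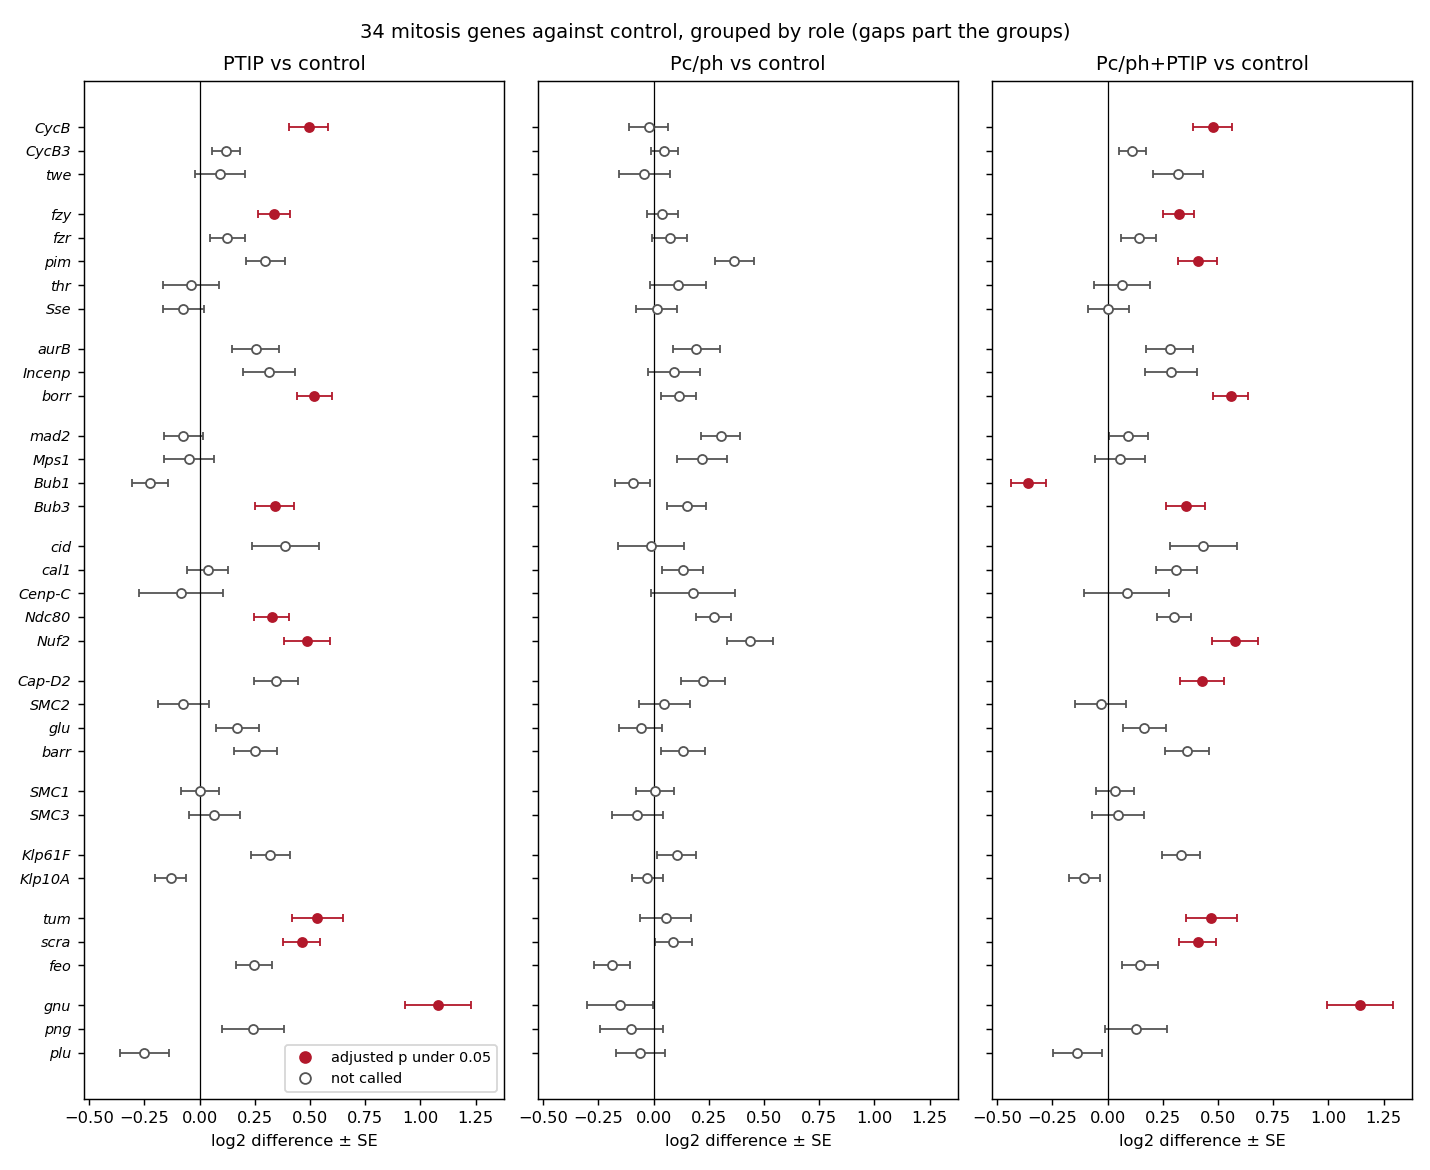
Log2 difference from control (points, with SE bars, n = 3 arrays per group) of the 34 measured mitosis genes in PTIP cells (left), Pc/ph cells (middle) and Pc/ph+PTIP cells (right), ordered by role, with called genes filled. In PTIP cells 9 genes were called, all to the right of 0, in Pc/ph cells 0 were called, and in Pc/ph+PTIP cells 10 were called to the right and Bub1 to the left.

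CycB, the B-type cyclin that activates Cdk1 for mitotic entry, had log2 signals of 11.42, 12.37 and 12.42 in PTIP cells, 11.13, 11.72 and 11.81 in Pc/ph cells, 11.47, 12.39 and 12.30 in Pc/ph+PTIP cells and 11.14, 11.80 and 11.79 in control cells (replicates 1, 2 and 3, an order kept in all such lists below). Under each number the PTIP and Pc/ph+PTIP arrays were higher than the Pc/ph and control arrays, though the groups overlap because replicate 1 is low everywhere. CycB rose by 0.49 ± 0.09 in PTIP cells (SE, n = 3, as throughout; limma adjusted p = 0.0108), a 1.41-fold level. In Pc/ph+PTIP cells the difference from control was 0.48 ± 0.09 (adjusted p = 0.0131) and that from Pc/ph cells was 0.50 ± 0.09 (adjusted p = 0.0109), and it was -0.02 in Pc/ph cells. The 3 calls held in 10, 8 and 8 of the 12 fits that each left out 1 array, with a highest adjusted p of 0.0743. CycB3, a second mitotic cyclin that acts late in mitosis, differed from control by 0.12 ± 0.06 in PTIP cells and 0.11 ± 0.06 in Pc/ph+PTIP cells and was not called. The Cdc25 phosphatase gene twe, which acts in germline meiosis, was not called either (0.09 ± 0.11 and 0.32 ± 0.11).

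In the chromosomal passenger complex, which places Aurora B kinase at centromeres and later at the central spindle, 1 of 3 measured genes rose. This was borr, which encodes Borealin, the subunit that targets the complex. Its signals were 11.28, 12.12 and 12.18 in PTIP cells, 10.96, 11.63 and 11.77 in Pc/ph cells, 11.49, 12.08 and 12.12 in Pc/ph+PTIP cells and 10.74, 11.65 and 11.64 in control cells. Under each number both groups with PTIP dsRNA lay above both groups without it. borr rose by 0.52 ± 0.08 (adjusted p = 0.00532) in PTIP cells and by 0.56 ± 0.08 (adjusted p = 0.00433) in Pc/ph+PTIP cells against control, and by 0.44 ± 0.08 (adjusted p = 0.0118) against Pc/ph cells. With gnu it was the gene whose calls held best: in 12, 12 and 11 of the 12 fits that left out 1 array, the exception being the comparison with Pc/ph cells without Pc/ph replicate 2 (adjusted p = 0.0621). Without the block it was called in none of them (adjusted p = 1 in each). The kinase gene aurB and its scaffold Incenp differed from control by 0.25 ± 0.11 and 0.31 ± 0.12 in PTIP cells and by 0.28 ± 0.11 and 0.29 ± 0.12 in Pc/ph+PTIP cells, and neither was called.

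Of 4 spindle checkpoint genes 1 rose and 1 fell in Pc/ph+PTIP cells. Bub3, a WD-repeat protein that brings checkpoint kinases to kinetochores, had signals of 12.46, 12.74 and 12.63 in PTIP cells, 12.30, 12.42 and 12.54 in Pc/ph cells, 12.58, 12.59 and 12.70 in Pc/ph+PTIP cells and 11.98, 12.41 and 12.41 in control cells. All PTIP and all Pc/ph+PTIP arrays lay above all control arrays. Bub3 rose by 0.34 ± 0.09 (adjusted p = 0.0473) in PTIP cells and 0.35 ± 0.09 (adjusted p = 0.0448) in Pc/ph+PTIP cells, but both calls lie near the threshold and held in 2 and 2 of the 12 fits that left out 1 array, with adjusted p up to 0.203. In replicates 2 and 3 alone the differences were 0.27 and 0.23 and were not called (adjusted p = 0.0565 and 0.113).

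Bub1, the checkpoint kinase that Bub3 binds, was the 1 mitosis gene that fell in any comparison, with signals of 7.42, 8.90 and 8.78 in PTIP cells, 7.46, 9.04 and 8.98 in Pc/ph cells, 7.37, 8.70 and 8.62 in Pc/ph+PTIP cells and 7.57, 9.24 and 8.95 in control cells. Its Pc/ph+PTIP array was the lowest of the 4 groups under every number. Bub1 fell by 0.36 ± 0.08 in Pc/ph+PTIP cells against control (adjusted p = 0.03), a call that held in 7 of the 12 fits that left out 1 array (highest adjusted p = 0.151). In PTIP cells its difference of -0.22 ± 0.08 (adjusted p = 0.153) was not called. The checkpoint effector gene mad2 stood at -0.07 ± 0.09 in PTIP cells and 0.09 ± 0.09 in Pc/ph+PTIP cells, and the checkpoint kinase gene Mps1 at -0.05 ± 0.11 and 0.06 ± 0.11. Neither was called.

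At the centromere and kinetochore 2 of 5 genes rose in PTIP cells, both from the Ndc80 complex, which holds the kinetochore to spindle microtubules. Ndc80 had signals of 9.52, 10.70 and 10.73 in PTIP cells, 9.63, 10.51 and 10.65 in Pc/ph cells, 9.58, 10.67 and 10.62 in Pc/ph+PTIP cells and 9.33, 10.37 and 10.28 in control cells. Nuf2, its binding partner, had signals of 9.38, 9.99 and 9.94 in PTIP cells, 9.23, 9.89 and 10.03 in Pc/ph cells, 9.68, 9.95 and 9.94 in Pc/ph+PTIP cells and 8.78, 9.56 and 9.50 in control cells. For both genes the control array was the lowest of the 4 under each number, and for Nuf2 all Pc/ph+PTIP arrays lay above all control arrays.

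Ndc80 rose by 0.33 ± 0.08 (adjusted p = 0.0356) and Nuf2 by 0.49 ± 0.10 (adjusted p = 0.023) in PTIP cells, calls that held in 4 and 7 of the 12 fits that left out 1 array (adjusted p up to 0.158 and 0.106). In Pc/ph+PTIP cells Nuf2 rose by 0.58 ± 0.10 (adjusted p = 0.0122), held in 11 of the 12 fits and lost without control replicate 1 (adjusted p = 0.0592). In Pc/ph cells they stood at 0.27 and 0.44 and were not called. The centromeric histone gene cid stood at 0.39 ± 0.15 (adjusted p = 0.19) in PTIP cells and 0.43 ± 0.15 (adjusted p = 0.149) in Pc/ph+PTIP cells. Its loading factor cal1 stood at 0.04 ± 0.09 and 0.31 ± 0.09 and the inner kinetochore gene Cenp-C at -0.08 ± 0.19 and 0.09 ± 0.19, and none of these 3 was called.

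Of 4 condensin genes, Cap-D2, a regulatory subunit of condensin I, was called in 1 comparison. Its signals were 8.73, 10.20 and 9.94 in PTIP cells, 8.66, 9.89 and 9.96 in Pc/ph cells, 8.84, 10.12 and 10.17 in Pc/ph+PTIP cells and 8.20, 9.94 and 9.71 in control cells. The control array was lowest in replicates 1 and 3, and in replicate 2 the Pc/ph array was. Cap-D2 rose by 0.43 ± 0.10 (adjusted p = 0.0343) in Pc/ph+PTIP cells, held in 6 of the 12 fits that left out 1 array (highest adjusted p = 0.151), and was not called in PTIP cells (0.34 ± 0.10 (adjusted p = 0.0727)). The kleisin gene barr stood at 0.25 ± 0.10 in PTIP cells and 0.36 ± 0.10 in Pc/ph+PTIP cells, the ATPase gene glu (SMC4) at 0.17 ± 0.10 and 0.17 ± 0.10, and its partner SMC2 at -0.07 ± 0.12 and -0.03 ± 0.12. The cohesin ATPase genes SMC1 and SMC3, which hold sister chromatids together, had the medians nearest to 0 of the 10 roles in PTIP cells (0.03) and in Pc/ph+PTIP cells (0.04), both against control. SMC1 differed from control by 0.00 ± 0.09 in PTIP cells (95% interval -0.19 to 0.19) and SMC3 by 0.07 ± 0.12 (-0.19 to 0.33), and in Pc/ph+PTIP cells they stood at 0.04 ± 0.09 and 0.05 ± 0.12.

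Among the anaphase genes, fzy, the Cdc20 activator that turns on the APC/C at the end of metaphase, had signals of 11.73, 12.69 and 12.72 in PTIP cells, 11.58, 12.27 and 12.41 in Pc/ph cells, 11.80, 12.64 and 12.66 in Pc/ph+PTIP cells and 11.51, 12.33 and 12.29 in control cells. Both groups with PTIP dsRNA were higher than both groups without it under each number. fzy rose by 0.34 ± 0.07 (adjusted p = 0.0224) in PTIP cells and 0.32 ± 0.07 (adjusted p = 0.0296) in Pc/ph+PTIP cells, calls that held in 7 and 5 of the 12 fits that left out 1 array (adjusted p up to 0.106 and 0.129). The platform carries 2 further fzy probe sets with means of 5.13 and 5.82, near background, and a mean over all 3 gave differences of 0.10 and 0.02, neither called (adjusted p = 0.46 and 0.959).

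pim, the fly securin that keeps separase inactive until anaphase, had signals of 10.61, 11.42 and 11.24 in PTIP cells, 10.72, 11.37 and 11.38 in Pc/ph cells, 10.90, 11.30 and 11.41 in Pc/ph+PTIP cells and 10.27, 11.01 and 11.10 in control cells. The control array was the lowest of the 4 under each number, and the other 3 groups did not keep 1 order. pim rose by 0.41 ± 0.09 (adjusted p = 0.0267) in Pc/ph+PTIP cells, held in 7 of the 12 fits that left out 1 array (highest adjusted p = 0.121), and its differences of 0.30 ± 0.09 (adjusted p = 0.0841) in PTIP cells and 0.37 ± 0.09 (adjusted p = 0.0941) in Pc/ph cells were not called. Separase itself (Sse) stood at -0.07 ± 0.09 in PTIP cells and 0.00 ± 0.09 in Pc/ph+PTIP cells, its partner thr at -0.04 ± 0.13 and 0.07 ± 0.13, and fzr, the Cdh1 activator of the APC/C for late mitosis and G1, at 0.12 ± 0.08 and 0.14 ± 0.08. None of these 3 was called. The probe sets of fzr, barr and Klp10A are of a type that may also bind transcripts of other genes.

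Neither spindle motor was called. Klp61F, the kinesin-5 that pushes spindle poles apart, stood at 0.32 ± 0.09 (adjusted p = 0.0575) in PTIP cells and 0.33 ± 0.09 (adjusted p = 0.0557) in Pc/ph+PTIP cells, just outside the threshold, and the microtubule depolymerase gene Klp10A at -0.13 ± 0.07 and -0.11 ± 0.07. For comparison, the members just inside the threshold in PTIP cells were Bub3 (adjusted p = 0.0473) and Ndc80 (0.0356), and the next outside after Klp61F were Cap-D2 (0.0727) and pim (0.0841).

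Of the 3 cytokinesis genes, 2 rose in both groups with PTIP dsRNA. tum, the RacGAP subunit of centralspindlin, which marks the division plane, had signals of 11.11, 12.21 and 12.41 in PTIP cells, 10.98, 11.53 and 11.79 in Pc/ph cells, 11.10, 12.24 and 12.21 in Pc/ph+PTIP cells and 10.82, 11.65 and 11.66 in control cells. scra, which encodes anillin, the scaffold of the contractile ring, had signals of 11.36, 12.34 and 12.31 in PTIP cells, 11.19, 11.78 and 11.92 in Pc/ph cells, 11.40, 12.24 and 12.21 in Pc/ph+PTIP cells and 11.07, 11.82 and 11.73 in control cells. For both genes the PTIP and Pc/ph+PTIP arrays were above the Pc/ph and control arrays under each number, and the groups as a whole overlap.

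tum rose by 0.53 ± 0.12 (adjusted p = 0.0234) in PTIP cells and 0.47 ± 0.12 (adjusted p = 0.0426) in Pc/ph+PTIP cells, and scra rose by 0.46 ± 0.08 (adjusted p = 0.0121) and 0.41 ± 0.08 (adjusted p = 0.0214). The tum calls held in 7 and 4 and the scra calls in 10 and 6 of the 12 fits that left out 1 array, with adjusted p up to 0.199 for tum and 0.103 for scra. feo, the PRC1 homolog that bundles the central spindle, had signals of 11.05, 12.43 and 12.47 in PTIP cells, 10.77, 11.90 and 11.98 in Pc/ph cells, 11.01, 12.34 and 12.30 in Pc/ph+PTIP cells and 11.02, 12.14 and 12.06 in control cells. The Pc/ph array was the lowest of the 4 under each number. feo was higher in Pc/ph+PTIP than in Pc/ph cells by 0.33 ± 0.08 (adjusted p = 0.042), a call that held in 3 of the 12 fits (highest adjusted p = 0.197), and its differences from control of 0.25 ± 0.08 (adjusted p = 0.117) in PTIP cells and 0.15 ± 0.08 (adjusted p = 0.444) in Pc/ph+PTIP cells were not called.

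gnu showed the largest change of the 34 genes. It encodes the activating subunit of the PNG kinase, which in the egg and early embryo allows the first divisions by raising translation of maternal mRNAs such as that of cyclin B. Its signals were 7.66, 7.72 and 7.83 in PTIP cells, 6.47, 6.73 and 6.31 in Pc/ph cells, 7.62, 7.73 and 8.05 in Pc/ph+PTIP cells and 6.89, 6.58 and 6.50 in control cells. All 6 arrays with PTIP dsRNA lay above all 6 without it. gnu rose by 1.08 ± 0.15 in PTIP cells (95% interval 0.75 to 1.41; adjusted p = 0.00339), a 2.11-fold level, and by 1.14 ± 0.15 in Pc/ph+PTIP cells (adjusted p = 0.00271). Against Pc/ph cells the Pc/ph+PTIP cells were higher by 1.30 ± 0.15 (adjusted p = 0.00125), while Pc/ph cells differed from control by -0.15. All 3 gnu calls held without the block (adjusted p = 0.0333, 0.0218 and 0.00741) and in 12 of 12 fits that left out 1 array.

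The other 2 subunits of the kinase were not called. The kinase gene png had a difference of 0.24 ± 0.14 in PTIP cells and 0.13 ± 0.14 in Pc/ph+PTIP cells, and plu, an ankyrin-repeat subunit, had -0.25 ± 0.11 and -0.14 ± 0.11. The plu signal is near background on most arrays. On one side of gnu in the gene table stand NHP2, a protein of small nucleolar RNA particles, and then Helz, on the other CG17839, and these neighbours were looked up after the gnu values were seen. NHP2 had signals of 13.01, 12.84 and 12.92 in PTIP cells and 12.10, 12.62 and 12.52 in control cells, and it rose by 0.51 ± 0.12 (adjusted p = 0.0334). Against Pc/ph cells it was higher in Pc/ph+PTIP cells by 0.65 ± 0.12 (adjusted p = 0.0127), and against control by 0.30 ± 0.12, not called (adjusted p = 0.223). Unlike those of gnu, neither NHP2 call held without the block (limma adjusted p = 0.494 and 0.245). In Pc/ph cells NHP2 stood at -0.36 ± 0.12 against control, lower in 3 of 3 pairs and not called (adjusted p = 0.267). Helz stood at -0.21 ± 0.07 in PTIP cells, not called (adjusted p = 0.114). CG17839 was not called either, with 0.24 ± 0.08 in PTIP cells (adjusted p = 0.142) and, in Pc/ph+PTIP cells, 0.25 ± 0.08 against control (adjusted p = 0.133) and 0.23 ± 0.08 against Pc/ph cells (adjusted p = 0.183), each positive in 3 of 3 pairs. Whether these genes share transcripts was not tested.

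**Figure D2:**
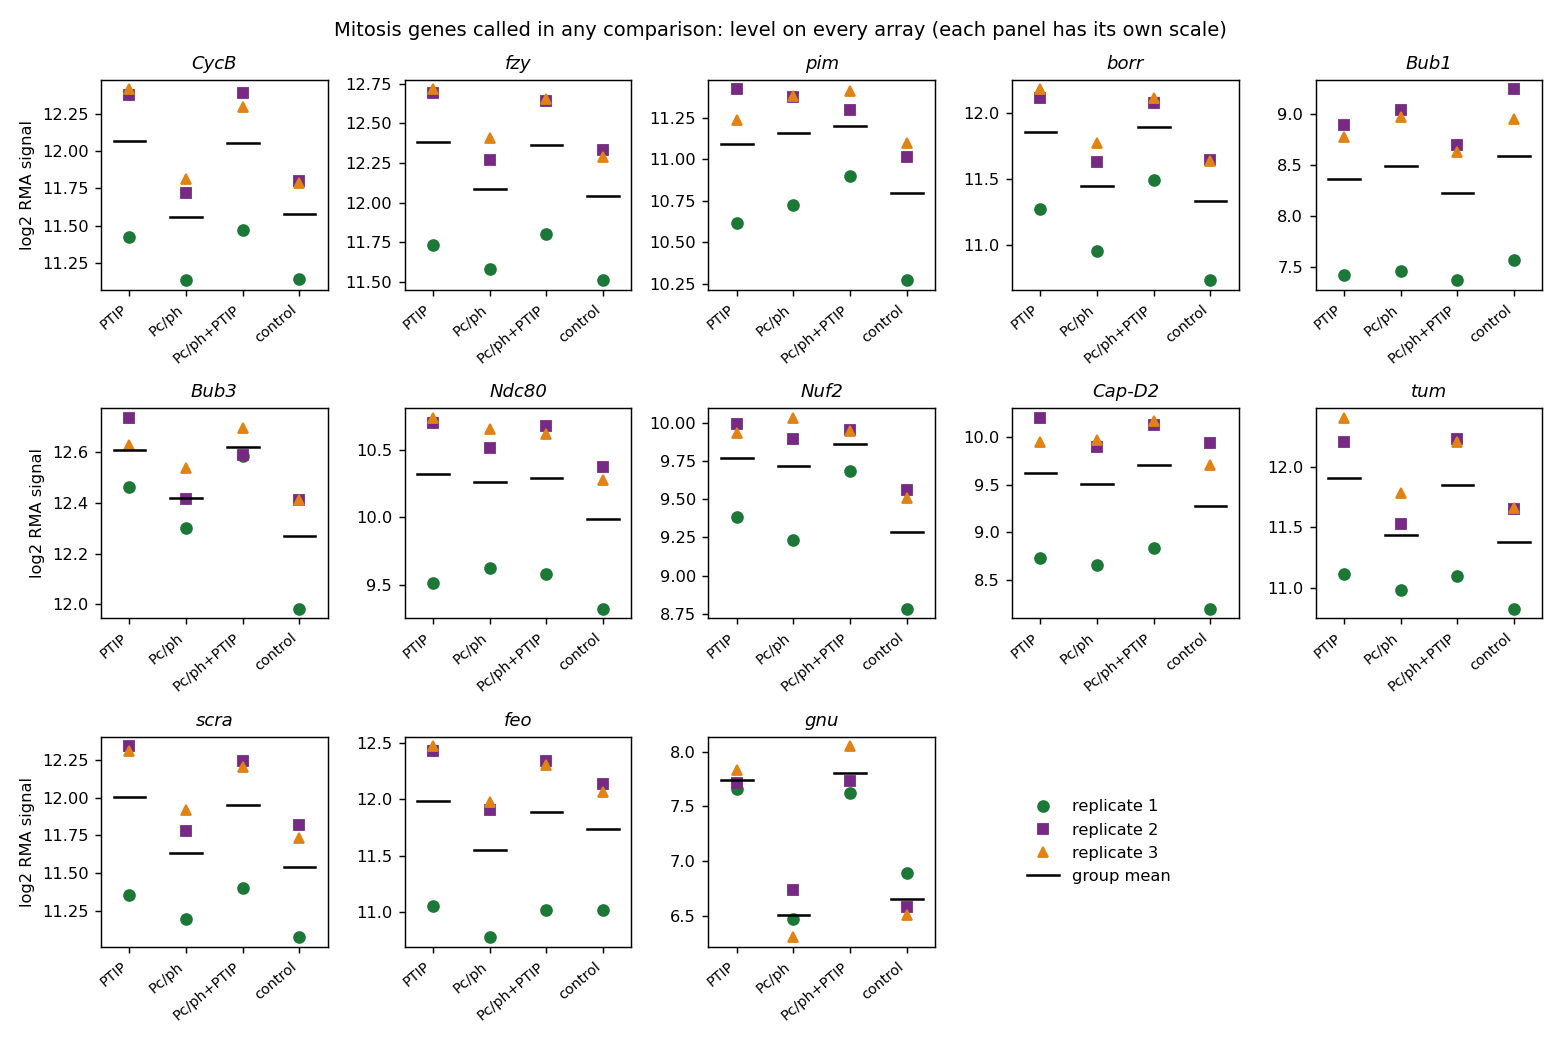
Log2 RMA signal (vertical axis, each panel with its own scale) of the 13 mitosis genes called in any comparison, with 1 point per array, marked by replicate number, in PTIP, Pc/ph, Pc/ph+PTIP and control cells, and a line at each group mean. Replicate 1 is the lowest array of every group for all genes but gnu, for which the 6 arrays with PTIP dsRNA lie between 7.62 and 8.05 and the other 6 between 6.31 and 6.89.

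PTIP dsRNA was given both alone and on top of Pc/ph dsRNA, and the 2 comparisons (PTIP against control, Pc/ph+PTIP against Pc/ph) have no array in common. The second also differs in Pc, whose signal was higher in Pc/ph+PTIP than in Pc/ph cells by 1.59 ± 0.20 (adjusted p = 0.00208), while Ptip differed by -0.22 ± 0.21 (adjusted p = 0.749). By same-numbered pair Ptip differed by -0.82, 0.05 and 0.12, so it was higher in 2 of 3. What PTIP dsRNA did and what the higher Pc did cannot be told apart in this second comparison. In the second, 4 of the 34 mitosis genes rose and 0 fell (11.8%, against 5.5% of all probe sets called and 2.9% called higher), namely CycB, borr, feo and gnu. Among the 9384 probe sets above the median signal 10.4% were called, near the share of the mitosis genes, and 516 were called higher. Without the block 1 (gnu) was called, against 0.298% of all probe sets. The median difference was 0.16, against 0.01 over all probe sets, with 25 of 34 positive (73.5%, against 54.2% of all probe sets). In 3 of 3 same-numbered pairs 16 of 34 were higher, against 20.7% of all probe sets. The count of 4 was 2 without Pc/ph+PTIP replicate 2 or 3, 9, 1 and 2 without Pc/ph replicates 1, 2 and 3, and 8 without PTIP replicate 1. CycB, borr and gnu were called in both comparisons, which is 3 of the 9 and 3 of the 4.

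All 34 genes had the same sign in both comparisons, 25 positive and 9 negative, against 66.3% of all probe sets and 77.6% of those above the median signal. Across the 34 genes the differences correlated at r = 0.88 (0.815 by Spearman's rank correlation), and at r = 0.82 without gnu. This describes genes that share arrays and replicate numbers and are not independent, and it carries no test. The difference between the 2 comparisons was tested directly as an interaction. Limma called it for 0 of the 34 genes, with or without the block, where 0.186% of all probe sets were called with it, and 2 genes (5.88%, against 4.51% of all probe sets) had an unadjusted p under 0.05, a share near the background. These were Ndc80 at -0.30 ± 0.11 (adjusted p = 0.895) and Nuf2 at -0.35 ± 0.15 (adjusted p = 1). The interaction values ran from -0.35 to 0.27, and 32 of the 34 95% intervals hold 0. The intervals reached a median of 0.30 to either side of the value and are not adjusted for the 18769 probe sets. With 3 arrays per group, differences of that size between the 2 backgrounds, or larger, could go uncalled, as for Ndc80 and Nuf2.

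**Figure D3:**
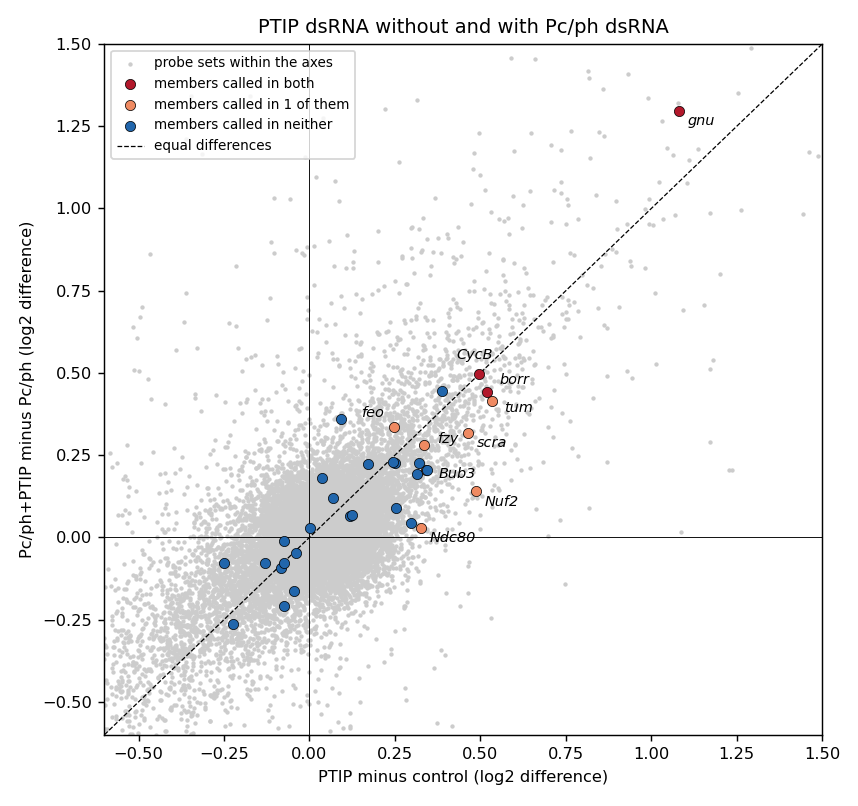
Log2 differences of PTIP minus control (horizontal axis) and of Pc/ph+PTIP minus Pc/ph (vertical axis), with the 34 mitosis genes coloured by whether they were called. The second pair of groups also differs in Pc. Grey points are the probe sets within the axes, and probe sets with larger differences are not drawn. All 34 lie at lower left or upper right of the zero lines, with gnu at 1.08 and 1.30 farthest from the origin and Ndc80 and Nuf2 farthest below the dashed line of equal differences among the called genes.

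Pc/ph+PTIP against PTIP asks what differs when Pc/ph dsRNA is given with PTIP dsRNA. Pc itself was lower by only 0.68 ± 0.20 in this comparison (pairs of -0.48, -0.91 and -0.65) and was not called. Whether mitosis genes would differ after a larger fall of Pc was not tested. Limma called 0 of the 34 mitosis genes, with or without the block, where 0.032% of all probe sets were called with it. Their median difference was 0.03, against -0.01 over all probe sets, and values ran from -0.13 for Bub1 to 0.28 for cal1, the 1 gene at an unadjusted p under 0.05 (adjusted p = 1).

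Further genes of mitosis were taken from 6 lists, 95 of whose 115 genes were measured. In PTIP cells 8 rose and 3 fell (11.6%, against 6.52% of all probe sets), with a median of 0.10. In Pc/ph cells 1 rose (1.05%, against 1.53%). In Pc/ph+PTIP cells 10 rose and 1 fell against control (11.6%, against 5.57%), and 4 rose and 3 fell against Pc/ph cells (7.37%, against 5.5%, a share near the background). Among probe sets above the median signal 12.6, 2.79, 10.6 and 10.4% were called in these comparisons. The shares of the 95 lay near or below these. Called higher there were 5.24% in PTIP cells and 5.05% in Pc/ph+PTIP cells against control. Without the block 0, 1, 0 and 1 of the 95 were called in these 4 comparisons, the 1 being nuf in both. The median in PTIP cells was below the 0.24 of the 34, and that difference was not tested.

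Of 11 further APC/C genes 2 fell in PTIP cells (18.2%), 1 in Pc/ph+PTIP cells against control (9.09%) and 2 against Pc/ph cells (18.2%), and 0 rose. Of all probe sets 6.52, 5.57 and 5.5% were called in these comparisons, and of those above the median signal 12.6, 10.6 and 10.4%. Most of the 11 were nevertheless positive, 8, 7 and 8 in these comparisons, with medians of 0.09, 0.11 and 0.07. These are 72.7, 63.6 and 72.7%, where 59.7, 54.2 and 54.2% of all probe sets were positive. The subunit gene APC7 differed by -1.09 ± 0.15 (adjusted p = 0.00367) in PTIP cells and -1.10 ± 0.15 (adjusted p = 0.00392) in Pc/ph+PTIP cells, and mr, the APC2 subunit, by -0.35 ± 0.08 (adjusted p = 0.0373) in PTIP cells. Of 12 further kinetochore and checkpoint genes 2 rose in PTIP cells (16.7%) and 1 in Pc/ph+PTIP cells (8.33%). Spc25, another member of the Ndc80 complex, rose by 0.50 ± 0.09 (adjusted p = 0.0132) and 0.48 ± 0.09 (adjusted p = 0.0168), and Kmn1, of the adjoining Mis12 complex, rose by 0.35 ± 0.08 in PTIP cells (adjusted p = 0.0279). Of 10 further entry and exit regulators 1 rose in PTIP cells and 1 in Pc/ph+PTIP cells against control (10% in each). Both shares lie below the 12.6 and 10.6% of probe sets above the median signal. The gene was the Cdk-binding Cks85A, which rose by 0.45 ± 0.11 and 0.55 ± 0.11 (adjusted p = 0.0323 and 0.0155). Of 10 further condensin and cohesin genes 1 rose in PTIP cells (10%, also below 12.6%), and 0 were called in Pc/ph+PTIP cells. This was san, an acetyltransferase needed for sister chromatid cohesion, which rose by 0.38 ± 0.08 (adjusted p = 0.0162).

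Of 39 spindle and centrosome genes 2 rose in PTIP cells, 5 in Pc/ph+PTIP cells against control and 3 against Pc/ph cells, and 0 fell. These are 5.13, 12.8 and 7.69% of them, against 6.52, 5.57 and 5.5% of all probe sets, so the share in PTIP cells was below the background. Of probe sets above the median signal, 12.6, 10.6 and 10.4% were called. SAK, the Plk4 kinase that starts centriole duplication, rose by 0.69 ± 0.11 in PTIP cells and 0.89 ± 0.11 in Pc/ph+PTIP cells (adjusted p = 0.00803 and 0.00249), and by 0.72 ± 0.11 against Pc/ph cells (adjusted p = 0.00659). The minus-end-directed kinesin gene ncd rose by 0.47 ± 0.07 and 0.41 ± 0.07 (adjusted p = 0.00503 and 0.00962). Of 13 further cytokinesis genes 2 rose and 1 fell in PTIP cells, and 3 rose in Pc/ph+PTIP cells (23.1% in each). The kinesin gene neb rose by 0.61 ± 0.13 in PTIP cells (adjusted p = 0.0201), and dia, a formin that assembles actin filaments, by 0.89 ± 0.19 in Pc/ph+PTIP cells (adjusted p = 0.0239). The endosome adaptor gene nuf was unlike the others named here. It fell by 1.26 ± 0.21 in PTIP cells (adjusted p = 0.00892), rose by 2.52 ± 0.21 in Pc/ph cells (adjusted p = 0.00025) and fell by 2.54 ± 0.21 in Pc/ph+PTIP against Pc/ph cells (adjusted p = 0.000199).

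Genes of DNA replication and of cell cycle transcription were also measured. Of 33 DNA replication genes 5 rose and 0 fell in PTIP cells, 3 rose in Pc/ph+PTIP cells against control and 4 against Pc/ph cells. These are 15.2, 9.09 and 12.1%, against 6.52, 5.57 and 5.5% of all probe sets. Of probe sets above the median signal, 12.6, 10.6 and 10.4% were called, so the share in Pc/ph+PTIP cells against control was below that. The median in PTIP cells was 0.24, with 30 positive (90.9%, against 59.7% of all probe sets). All 33 were positive in Pc/ph+PTIP against Pc/ph cells, against 54.2% of all probe sets. In PTIP cells the primase gene Prim1 rose by 0.90 ± 0.22 (adjusted p = 0.0397) and the replicative helicase gene Mcm6 by 0.58 ± 0.11 (adjusted p = 0.0166). In Pc/ph cells 1 fell (3.03%, against 1.53%, and 2.79% of those above the median signal). This was the clamp loader gene RfC4, by 0.46 ± 0.09 (adjusted p = 0.0317). Of 11 genes for E2F, retinoblastoma-family and Myb-MuvB (dREAM) regulators, which repress and activate cell cycle genes, 3 rose in PTIP cells (27.3%, median 0.34) and 3 in Pc/ph+PTIP cells (27.3%, median 0.29), among them E2f2, a repressive E2F, by 0.47 ± 0.11 and 0.45 ± 0.11 (adjusted p = 0.0316 and 0.0425), and Rbf2 by 0.40 ± 0.07 in PTIP cells (adjusted p = 0.00699). Without the block none of the replication or regulator genes was called in these comparisons.

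**Figure D4:**
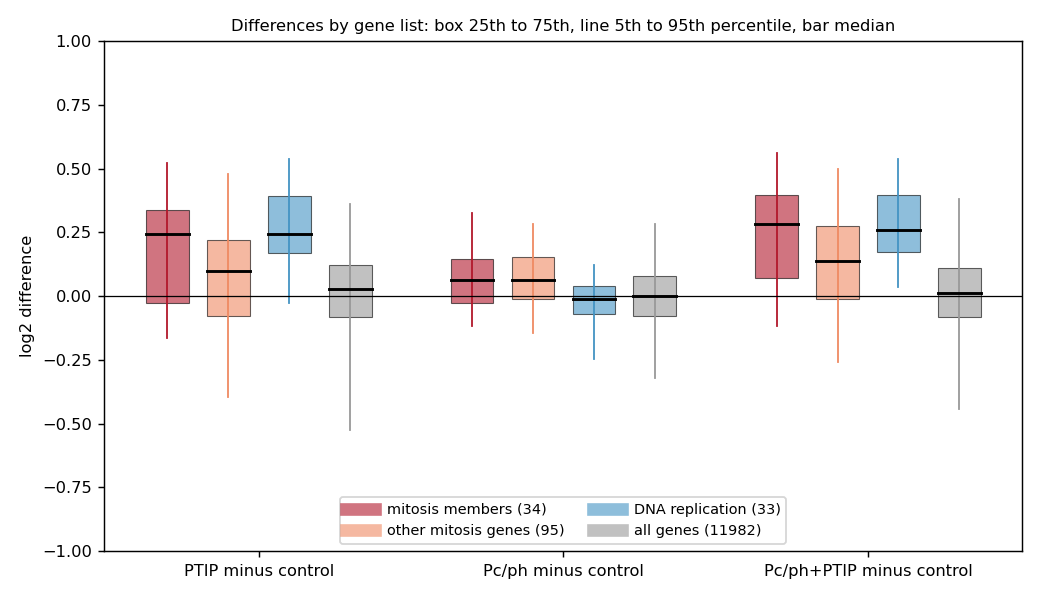
Log2 difference from control (vertical axis) of the 34 mitosis genes, 95 other mitosis genes, 33 DNA replication genes and all 11982 genes, for PTIP cells (left), Pc/ph cells (middle) and Pc/ph+PTIP cells (right), with boxes from the 25th to the 75th percentile, thin lines from the 5th to the 95th and a bar at the median. In PTIP and Pc/ph+PTIP cells the medians of the mitosis genes (0.24 and 0.28) and of the replication genes (0.24 and 0.26) lie above that of all genes, and in Pc/ph cells all 4 medians lie between -0.01 and 0.06.

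Markers of cell identity moved as well. Of 14 hemocyte markers 6 fell in PTIP cells (42.9%, median -0.28), and 3 fell in Pc/ph+PTIP cells against control (21.4%, median -0.34) and 7 against Pc/ph cells (50%, median -0.62). In Pc/ph cells 2 rose and 3 fell (35.7%), with a median of 0.36 and 11 of 14 positive (78.6%, against 49.6% of all probe sets). Of all probe sets 6.52, 5.57, 5.5 and 1.53% were called in these comparisons, in the same order. Of those above the median signal 12.6, 10.6, 10.4 and 2.79% were called. Without the block 0 of the 14 markers were called in each group against control and 1, Glt, in Pc/ph+PTIP against Pc/ph cells. Their mean signal over the 14 genes ran from 10.1 to 11.3 in PTIP arrays, from 11.1 to 12.2 in Pc/ph arrays, from 10.1 to 11.4 in Pc/ph+PTIP arrays and from 10.6 to 11.9 in control arrays, ranges that overlap because replicate 1 is low in each group. Under the same number that mean was lower than control in 3 of 3 PTIP arrays (differences of -0.42, -0.65 and -0.69) and in 3 of 3 Pc/ph+PTIP arrays (-0.48, -0.51 and -0.40), and higher in 3 of 3 Pc/ph arrays (0.54, 0.17 and 0.40). Neither of 2 muscle markers exceeded the Y-linked probe sets on any array. Of 4 neuronal markers elav, nSyb and brp exceeded them on all 12 arrays and futsch on 10. None of these 4 was called. Whether the fall in hemocyte markers has a part in the differences of the mitosis genes was not tested.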

How the data were processed

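RNA from 12 samples was measured on 1 array each, and groups and replicate numbers were taken from the labels. The authors deposited log2 RMA signals per probe set, made with RMA per the submitters' processing notes, which also name limma and give no versions. No further normalization was applied. The table holds 18952 probe sets, of which 183 are platform controls that were left out and 18769 entered the test. By the platform annotation 13647 of them have 1 symbol, 402 several and 4720 none, and 13544 of the first matched the RefSeq gene table, assembly Release 6 plus ISO1 MT, which was used for names and neighbours only. Mad2 is listed there as mad2. For each gene the probe set with the highest mean was kept.

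Groups were compared in limma 3.58.1 (R 4.3.3), two-sided, with 4 group means and the replicate number as a block in 1 fit to all 12 arrays (6 residual degrees of freedom, 8 without the block), moderated variances, and p-values adjusted by Benjamini-Hochberg in each of 6 comparisons over all 18769 probe sets. Arrays of the same number deviated together from their group means (r = 0.489 to 0.880 over 18 pairs, against -0.842 to 0.784 over 36 pairs of different number), which reflects replicate 1 in part, and numbers 2 and 3 were not shown to pair. In simulated data with these array spreads, limma called 50 of 100 probe sets changed by 0.5 and 89 of 100 changed by 1 (log2) between PTIP and control. The changed probe sets were drawn from all 18769, bright or dim, and were far fewer than the 1224 called in the data. These rates therefore need not hold for the mitosis genes. Values in every array are given for each mitosis gene called in any comparison, and other members are given by their difference. Of each further list other than markers, at most 2 called genes per direction and comparison, those with the largest differences, could be named, and some of them are. The results of 1 cytokinesis gene are not reported here. The members and lists were chosen with earlier results of these data known. No sequences are printed. Arrays have no read depth, and 3 arrays per group limit the precision. The alternatives were no block, a replicate 1 term, replicates 2 and 3 only, only the groups compared, quantile and cyclic loess normalization, only probe sets above the median signal, a variance trend, the mean over a gene's probe sets, and each array left out in turn.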

Additional observations from a re-analysis of the deposited data

How the results depend on the processing

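Over 24 calls of single mitosis genes and 21 alternative settings, 0 of 504 values changed sign and 354 stayed called, and 5 calls (gnu in 3 comparisons, borr in PTIP and Pc/ph+PTIP cells against control) held in all fits that left out 1 array. Many of the signs could not change. In this balanced design, 5 settings leave a gene's difference as it was: no block, a replicate 1 term, a variance trend, only bright probe sets, and only the groups compared. Leaving out an array of a group that is not compared does so too. The sign count is therefore no test in those settings. Without the replicate block the counts of called genes were 1, 1 and 1 for PTIP against control, Pc/ph+PTIP against control and Pc/ph+PTIP against Pc/ph, in place of 9, 11 and 4, because the replicate 1 shift then enters the error. In replicates 2 and 3 only, Pc/ph against control gave 1 call and Pc/ph+PTIP against Pc/ph gave 11, while PTIP and Pc/ph+PTIP against control gave 13 and 12. With only the arrays of the groups compared, the counts were 2 for PTIP, 1 for Pc/ph and 5 for Pc/ph+PTIP against control and 2 for Pc/ph+PTIP against Pc/ph. That fit was not run for the interaction, which needs all groups. Quantile normalization gave 16, 1 and 17 against control and 8 against Pc/ph, and cyclic loess gave 8 against Pc/ph, and the cause was not tested. Leaving out 1 array gave 2 to 9 calls for PTIP, 0 to 1 for Pc/ph and 3 to 15 for Pc/ph+PTIP against control, 1 to 9 for Pc/ph+PTIP against Pc/ph, and 0 to 0 for Pc/ph+PTIP against PTIP and for the interaction. The 1 call in Pc/ph cells appeared without Pc/ph+PTIP replicate 1. The median difference of the 34 genes stayed positive in all 21 settings for PTIP (0.16 to 0.31), Pc/ph (0.04 to 0.15) and Pc/ph+PTIP (0.21 to 0.31) against control and for Pc/ph+PTIP against Pc/ph (0.08 to 0.21). Here too, the settings named above cannot change a gene's difference, so this result is in part fixed by the design. With 3 arrays per group and most changes under 1.5-fold, a gene that was not called may still differ.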

Other observations

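gnu, png, plu and twe are known from the germline and early embryo, so germline markers were read beside them. Of 5 measured markers, the piRNA gene aub and the germline differentiation gene bam exceeded the Y-linked probe sets on all 12 arrays, and vas, piwi and osk did so on none. These genes are named after their values were seen. bam rose by 0.83 ± 0.16 in PTIP cells (limma adjusted p = 0.0144) and by 0.96 ± 0.16 in Pc/ph+PTIP cells (adjusted p = 0.00772), each against control (SE, n = 3), and was higher in 3 of 3 same-numbered pairs. It was also 0.54 above control in Pc/ph cells, and 0.42 higher in Pc/ph+PTIP than in Pc/ph cells, neither called. aub fell by 0.57 ± 0.13 in PTIP cells (adjusted p = 0.031) and was not called in Pc/ph+PTIP cells. Without the block neither was called (adjusted p = 0.277 and 0.156 for bam, 0.819 for aub). With the block, the markers called were 2 of 5 in PTIP cells and 1 of 5 in Pc/ph+PTIP cells. These are 40 and 20%, against 6.52 and 5.57% of all probe sets.

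fzr is also read by a probe set that the annotation gives to both fzr and BaraC. It differed from control by -0.96 in PTIP cells (adjusted p = 0.0566) and was not used here, since its signal cannot be assigned to 1 gene.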
